A study of Homo sapiens with 6 samples.

Results

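The genes described here are the replication-dependent histone genes and the main variant histone genes of the MDA-MB-231 line, established from a human breast cancer of the triple-negative type. Members were the protein-coding genes whose current symbol has the form H1-, H2AC, H2BC, H3C or H4C followed by a number, together with H2AX, H2AZ1, H2AZ2, H2AJ, MACROH2A1, MACROH2A2, H3-3A and H3-3B. There were 82 of them among 61533 gene rows. Of these, 70 carry the names of the clustered, replication-dependent genes (6 H1, 17 H2A, 19 H2B, 13 H3 and 15 H4 genes) and 12 are variants (H1-7, H1-8 and H1-10 among them). The names follow the clusters closely: 55 clustered members lie in the chromosome 6 cluster, 11 in the large and 2 in the small cluster on chromosome 1, and 2 lie elsewhere.

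RNA from ribosome-depleted total RNA libraries was counted per gene in 3 libraries of cells with an empty vector, labelled wild type, and 3 libraries of shKDM2B cells, which carry a short hairpin RNA against KDM2B and are labelled as a knockdown. All cells were grown alike and taken before confluence. The sources used here give neither the hairpin's sequence nor its vector, and do not say whether the cells were a pool or 1 clone. KDM2B is a histone H3 lysine demethylase that also recruits a noncanonical Polycomb complex to CpG islands.

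Replication-dependent histone genes are made in bulk during DNA replication. Most lack introns, and their messenger RNAs usually end in a conserved stem-loop bound by SLBP instead of a poly(A) tail, although many can also be made in a polyadenylated form. Variant histone genes mostly stand alone, give polyadenylated messages through the cell cycle and supply histones for sites of transcription, repair or silencing. H2AX is an exception in that its transcript also holds the stem-loop. Ribosome depletion keeps both kinds of message.

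The stem-loop is shown for members that differed in their response, to let the shared signal be seen; the capitals mark its 16 bases and the lower case letters are the 5 bases on either side, from GENCODE 29 transcripts. Genes called higher are H2AC6 and H4C8, H2BC13 was called lower, and H2AX is the variant that holds the loop.
H2AC6: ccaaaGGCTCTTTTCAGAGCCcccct
H4C8: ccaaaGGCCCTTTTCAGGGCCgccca
H2BC13: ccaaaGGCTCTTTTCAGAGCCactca
H2AX: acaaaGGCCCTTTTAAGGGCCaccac
The letters GGNNNTTTTNAGNNCC, searched on the transcript strand, were found in a transcript of 29 of the 78 members with a GENCODE 29 transcript and in 0.341% of the 58676 genes of that annotation. A model that stops at the end of the coding sequence, as the 381-base model of H2BC12 does, cannot hold the loop, so a missing match says nothing about the gene.

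Promoters are shown for the H2B genes that rose most, for the clustered gene that fell most, and for the variants H1-10 and H2AZ1, which moved in opposite directions. They are RefSeq sequences of GRCh38.p14, from 250 bases before to 50 after the start, and all 5 lie on the minus strand: H2BC12 at chr6:27146806-27147105, H2BC11 at chr6:27132746-27133045, H2AC21 at chr1:149887916-149888215, H1-10 at chr3:129316237-129316536 and H2AZ1 at chr4:99950226-99950525. Capitals mark the motif CCAAT, the TATA box letters TATAAA and the octamer ATTTGCAT on either strand, where matches on opposite strands may overlap.
H2BC12: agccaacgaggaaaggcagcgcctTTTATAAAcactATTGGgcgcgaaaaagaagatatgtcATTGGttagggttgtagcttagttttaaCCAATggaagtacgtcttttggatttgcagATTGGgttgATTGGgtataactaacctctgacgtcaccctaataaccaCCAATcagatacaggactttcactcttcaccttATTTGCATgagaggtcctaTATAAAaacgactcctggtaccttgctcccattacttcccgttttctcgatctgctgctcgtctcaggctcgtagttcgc
H2BC11: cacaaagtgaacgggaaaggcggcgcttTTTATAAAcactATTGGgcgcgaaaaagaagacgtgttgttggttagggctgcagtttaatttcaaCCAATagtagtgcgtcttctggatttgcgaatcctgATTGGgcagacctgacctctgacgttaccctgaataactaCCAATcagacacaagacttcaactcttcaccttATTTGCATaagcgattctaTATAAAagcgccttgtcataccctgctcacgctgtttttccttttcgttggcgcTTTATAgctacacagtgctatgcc
H2AC21: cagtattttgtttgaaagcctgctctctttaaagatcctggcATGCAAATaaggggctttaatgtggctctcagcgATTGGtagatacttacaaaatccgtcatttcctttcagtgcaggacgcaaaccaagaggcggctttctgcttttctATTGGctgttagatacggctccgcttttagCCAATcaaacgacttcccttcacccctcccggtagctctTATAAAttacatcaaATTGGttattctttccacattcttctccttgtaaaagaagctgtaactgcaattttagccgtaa
H1-10: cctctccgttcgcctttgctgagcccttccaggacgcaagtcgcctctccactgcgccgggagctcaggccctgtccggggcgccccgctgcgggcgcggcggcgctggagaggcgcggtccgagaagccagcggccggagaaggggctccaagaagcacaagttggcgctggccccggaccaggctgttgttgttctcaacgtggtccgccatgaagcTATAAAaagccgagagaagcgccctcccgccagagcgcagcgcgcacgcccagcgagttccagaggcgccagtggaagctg
H2AZ1: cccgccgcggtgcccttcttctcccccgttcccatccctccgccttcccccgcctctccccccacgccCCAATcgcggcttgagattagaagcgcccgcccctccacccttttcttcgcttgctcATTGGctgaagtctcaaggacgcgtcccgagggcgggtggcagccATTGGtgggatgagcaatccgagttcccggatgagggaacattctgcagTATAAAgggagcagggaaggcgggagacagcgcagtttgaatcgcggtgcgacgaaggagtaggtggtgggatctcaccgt
RefSeq promoters were matched for 75 of the 82 members, taking of several entries the one nearest to the annotated start. The octamer, the site known for the POU factor POU2F1 in H2B promoters, was in 25 of 34 clustered H2A or H2B promoters (73.5%), in 0 of 30 other clustered promoters, in 1 of 11 variant promoters and in 1.80% of all 27305 promoters. CCAAT was in all 34 clustered H2A or H2B promoters, in 20 of the 30 other clustered ones, in 9 of 11 variant promoters and in 35.7% of all promoters. TATAAA was in 43 of 64 clustered promoters and in 11.96% of all. The octamer was held by 6 of the 8 H2A or H2B promoters of genes called higher, 3 of 4 called lower and 6 of 10 not called. The promoters in these counts are not all separate sequences, since H2A and H2B genes that start head to head can share bases. That of H2AC11 (chr6:27132793-27133092), a gene not called, overlaps that of H2BC11. A motif in the shared bases was counted for both genes. The H2BC11 and H2BC12 promoters were 76.0% identical after global alignment, against a median of 53.0% over 2016 pairs of clustered promoters, where this pair ranked 7. A match is a description of the letters and not evidence of a bound site.

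Library totals ran from 10190149 to 15737951 counts, given below as CPM, counts scaled by library size; the limit that a count of 0 leaves is 3 counts, between 0.191 and 0.294 CPM, and covers counting error only. KDM2B fell from 63.5 ± 5.58 to 14.7 ± 0.183 CPM (SD, n = 3 each, as for all means here). All 5 mesenchymal markers passed the filter, VIM falling from 1299 ± 52.3 to 406 ± 10.3 CPM while FN1, CD44 and AXL rose and ZEB1 was not called, ESR1 and PGR had at most 4 counts in any library, ERBB2 was at 63.7 ± 8.34 and 62.5 ± 3.80 CPM, and 0 of 4 leukocyte and 0 of 4 fibroblast markers passed the filter, each with at most 4 counts in any library. Mitochondrial transcripts took 0.0767 to 0.151% of counts in empty vector and 0.196 to 0.476% in shKDM2B libraries, and MALAT1, a nuclear RNA, 0.0958 to 0.107% against 0.246 to 0.311%. The part of these shifts in the histone results was not tested. Of 14071 genes tested, 60.9% were called at an adjusted p under 0.05 by edgeR's quasi-likelihood test, 30.5% higher and 30.4% lower in shKDM2B, and in 65.5% the groups did not overlap.

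The clustered genes as a whole did not move one way. Of the 70 clustered members, 42 passed the filter on low counts, and 11 were called higher, 7 lower (12 without shKDM2B replicate 2) and 24 neither. That is 42.9% called against 60.9% of all genes, with groups apart in 45.2% against 65.5%. The median log2 fold change over the 42 was 0.0032, and it was -0.0067 over all genes. Of 12 tested H2B genes, 5 were called higher and 3 lower, a share of 66.7% that is near the 60.9% of all genes, while the 2 calls among 8 tested H3 genes were both lower. H2A gave 3 higher and 1 lower of 11, H4 gave 2 higher and 1 lower of 9, and H1 gave 1 higher of 2.

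Of the 12 variants, 10 passed the filter, and 4 were called higher and 3 lower. The count called higher was 2 without empty vector replicate 1 or 3 or shKDM2B replicate 3. Called were 70.0%, near the 60.9% of all genes, with groups apart in 80.0% against 65.5%, and the median log2 fold change was 0.14. The difference between the clustered and the variant shares was not tested. By class, H1-10 and both H3.3 genes were called higher, and the 3 calls among 6 H2A variants were all lower. The log2 fold changes of the 6 H2A variants were 3 positive and 3 negative. The H3-3B and H2AJ calls were each lost without some single libraries, as given below. These classes hold too few genes for a pattern by class to be read from them.

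**Figure D1:**
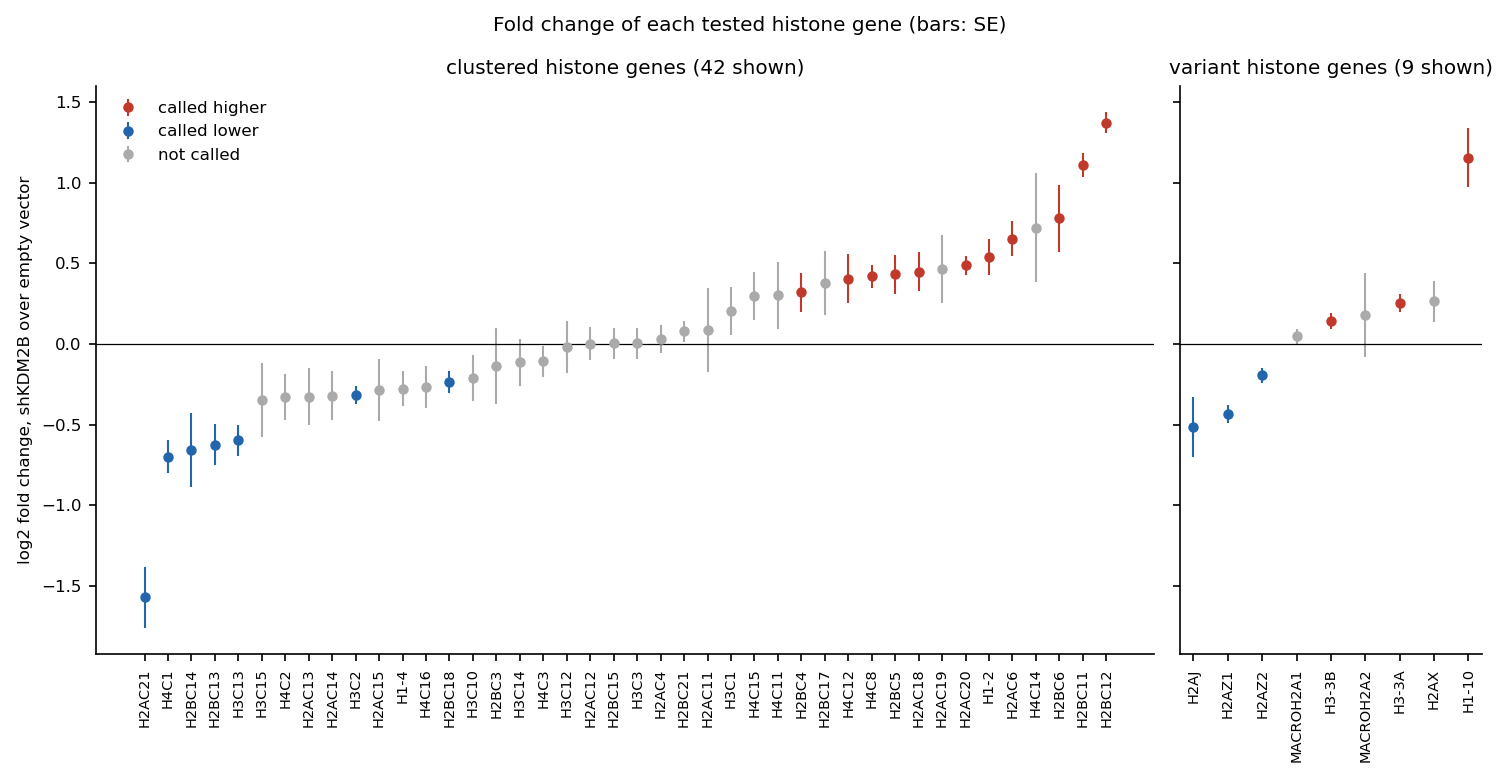
Log2 fold change of shKDM2B over empty vector for the 42 tested clustered members on the left and 9 tested variants on the right, with bars for the SE; red is called higher, blue called lower and grey not called. Clustered genes run from -1.57 in H2AC21 to 1.37 in H2BC12 around a median of 0.0032, and variants from -0.52 in H2AJ to 1.16 in H1-10.

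Summed over all members in a library, clustered histone RNA was 1637, 1801 and 1569 CPM in empty vector and 1894, 2141 and 1900 CPM in shKDM2B libraries. The groups did not overlap, and the ratio of the means was 1.19. Without H1-2 and H2BC12, the members with the largest differences in CPM, it was 1.03 and the groups overlapped. These sums are descriptions, with no test.

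By class, the clustered H2B sum rose most, from 332 ± 8.65 to 506 ± 24.6 CPM, a ratio of 1.52 that became 1.06 without H2BC11 and H2BC12. Clustered H1 went from 437 ± 75.5 to 558 ± 23.0 CPM and clustered H2A from 389 ± 14.1 to 461 ± 58.2 CPM. The H2A ratio of 1.18 became 0.999 without H2AC6 and H2AC20. Clustered H3 was the class with lower sums in shKDM2B, at 354 ± 22.3 against 298 ± 29.4 CPM, with groups apart. Clustered H4 was level, at 157 ± 12.8 and 156 ± 10.5 CPM.

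The variant sum hardly differed, at 2209 ± 121 and 2215 ± 19.9 CPM, while the sums of its classes moved in different directions. The H3.3 genes summed to 644 ± 35.6 and 725 ± 11.7 CPM, and the H2A variants to 1362 ± 75.7 and 1217 ± 7.18 CPM. In both classes the groups stood apart. Among the H2A variants H2AZ1 had the largest difference in CPM, from 564 ± 42.4 to 417 ± 21.2. The H2A variant sum was not taken without H2AZ1. The ratio of clustered to variant RNA was 0.755 ± 0.0271 in empty vector and 0.893 ± 0.0657 in shKDM2B, also apart. It was not taken without H1-2 and H2BC12, without which the clustered sum had a ratio of means of 1.03 and overlapping groups.

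**Figure D2:**
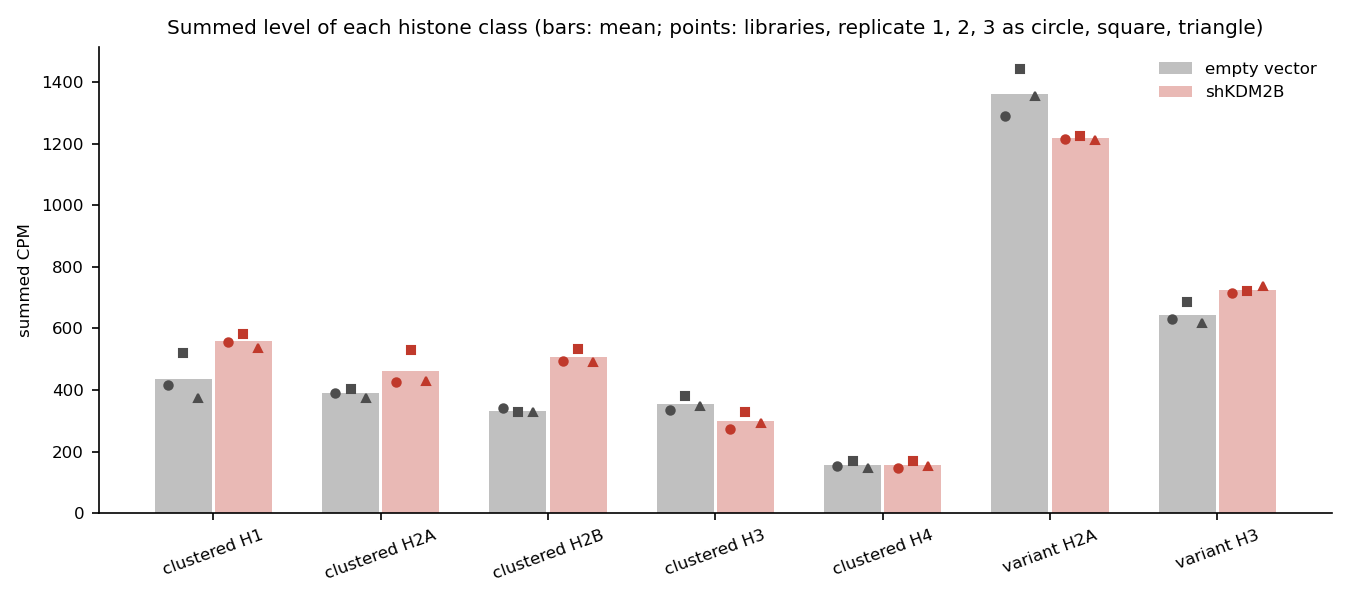
Summed CPM of each histone class, with grey for empty vector and red for shKDM2B, bars for the means and points for the libraries. The clustered H2B sum lies between 327 and 342 CPM in empty vector and between 490 and 534 CPM in shKDM2B libraries, while the clustered H4 sums overlap.

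Among the linker histones, which bind DNA between nucleosomes, H1-2 had 301, 375 and 265 CPM in empty vector and 459, 467 and 440 CPM in shKDM2B libraries. All shKDM2B libraries lay above all empty vector libraries, and H1-2 rose by 0.54 on the log2 scale (SE 0.11, edgeR adjusted p 0.00319). H1-4, the other tested clustered H1, was at 123 ± 19.8 and 102 ± 10.3 CPM, a log2 fold change of -0.28 that missed the threshold (adjusted p 0.0509). It was called lower without shKDM2B replicate 2 (-0.36) and without empty vector replicate 3 (-0.36). The variant H1-10, a linker histone present in most tissues, had 34.8, 56.7 and 41.3 CPM in empty vector and 96.8, 86.9 and 111 CPM in shKDM2B libraries. Its log2 fold change of 1.16 (SE 0.18, adjusted p 0.00179) was the largest of the variants. The gene H1-10-AS1 overlaps H1-10, and without a stated strand setting reads of the pair cannot be told apart; its own counts were not called different (0.49, adjusted p 0.234).

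Clustered H2A genes, which with H2B form the outer dimers of the nucleosome, gave the largest fall. H2AC21 (chromosome 1, 149887524 to 149887916) had 104, 168 and 147 counts in empty vector and 47, 48 and 56 in shKDM2B libraries. The groups did not overlap, and H2AC21 fell by 1.57 on the log2 scale (SE 0.19, adjusted p 6.26e-06). The annotated span of BOLA1 overlaps it, so part of its reads may belong to that gene. Its neighbour H2AC20 rose from 75.1 ± 3.39 to 105 ± 6.99 CPM (0.49, adjusted p 7.83e-06). Of the 75-base windows of H2AC20, 23.7% occur in transcripts of other genes, which makes its counts uncertain. H2AC6 had 78.2, 82.8 and 59.9 CPM against 117, 123 and 106 CPM, with groups apart, and rose by 0.65 (SE 0.11, adjusted p 0.000456). H2AC18, 1 of a near-identical pair with H2AC19, rose by 0.45 (adjusted p 0.00752), a call that was lost without empty vector replicate 2 (adjusted p 0.113) and kept when the pair was summed (0.45). The 7 H2A genes not called ran from -0.33 in H2AC13 to 0.46 in H2AC19.

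H2B genes gave the largest rises. H2BC12 (chromosome 6, 27146418 to 27146798) had 860, 983 and 1081 counts in empty vector and 2183, 2665 and 3310 in shKDM2B libraries. In CPM that is 85.2 ± 7.79 and 220.4 ± 11.4, with a wide gap between the groups, a rise of 1.37 on the log2 scale (SE 0.07, adjusted p 6.63e-10). H2BC11 had 21.4, 20.6 and 22.4 CPM in empty vector and 47.9, 45.4 and 46.0 CPM in shKDM2B libraries, again apart, and rose by 1.11 (SE 0.07, adjusted p 1.27e-08). Of the 75-base windows of H2BC12, 50.5% occur in transcripts of other genes, among them H2BC11 and H2BC12L, so how reads were assigned is uncertain. H2BC11 shared 1.33% of its windows, and H2BC12L, on chromosome 21, had at most 7 counts in any library.

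The other H2B calls were smaller. H2BC6 went from 2.74 ± 0.451 to 4.82 ± 1.05 CPM (0.78, adjusted p 0.00506), H2BC5 from 16.4 ± 3.35 to 22.3 ± 0.944 CPM (0.43, adjusted p 0.00743) and H2BC4 from 27.0 ± 5.73 to 33.9 ± 1.13 CPM (0.32, adjusted p 0.0354). The H2BC4 call was lost without any 1 of 5 libraries, all except empty vector replicate 1, with 0.16 without empty vector replicate 2. Lower were H2BC13, from 9.64 ± 0.344 to 6.25 ± 0.490 CPM (-0.62, adjusted p 0.000700), H2BC14, from 3.75 ± 1.00 to 2.31 ± 0.260 CPM (-0.66, adjusted p 0.0236), and H2BC18, from 62.8 ± 3.78 to 53.4 ± 4.36 CPM (-0.24, adjusted p 0.01003). The H2BC14 call was lost with DESeq2 (adjusted p 0.0597) and without empty vector replicate 2 (-0.44), shKDM2B replicate 1 or shKDM2B replicate 2. That of H2BC18 was lost without shKDM2B replicate 1 or 3. The annotated span of H2BC18 overlaps FCGR1A, and those of H2BC5 and H2BC6 overlap other annotated genes. Of the 75-base windows, 21.8% in H2BC18 and 27.8% in H2BC6 occur in transcripts of other genes, which makes their counts uncertain. The 4 H2B genes not called ran from -0.14 in H2BC3 to 0.38 in H2BC17.

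Among H3 genes, whose products form the core tetramer with H4, H3C13 had 58.4, 72.4 and 54.7 CPM in empty vector and 38.8, 43.5 and 39.9 CPM in shKDM2B libraries. The groups were apart, and H3C13 fell by 0.60 on the log2 scale (SE 0.09, adjusted p 9.71e-05). Of its windows 70.3% are shared with H3C14, H3C15 and others, which makes its counts uncertain. H3C2 fell from 133 ± 7.05 to 107 ± 3.96 CPM (-0.31, adjusted p 0.000226). The other 6 tested H3 genes were not called, with log2 fold changes from -0.34 in H3C15 to 0.20 in H3C1.

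Of the H4 genes, H4C1 had 17.9, 21.7 and 18.7 CPM in empty vector and 11.96, 11.82 and 12.05 CPM in shKDM2B libraries. Its shKDM2B libraries were close together and below all controls, a fall of 0.70 (SE 0.10, adjusted p 4.16e-05). H4C8 rose from 41.99 ± 2.79 to 55.9 ± 2.87 CPM (0.42, adjusted p 0.000134). H4C12 was called higher (0.41, adjusted p 0.0331) though its groups overlapped. Its windows are all shared with H4C11, and its call was lost with DESeq2 (adjusted p 0.0659) and without empty vector replicate 2 or 3 or shKDM2B replicate 1 or 2. The 6 H4 genes not called ran from -0.33 in H4C2 to 0.72 in H4C14, which had 6, 12 and 9 counts in empty vector and 14, 15 and 19 in shKDM2B libraries.

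**Figure D3:**
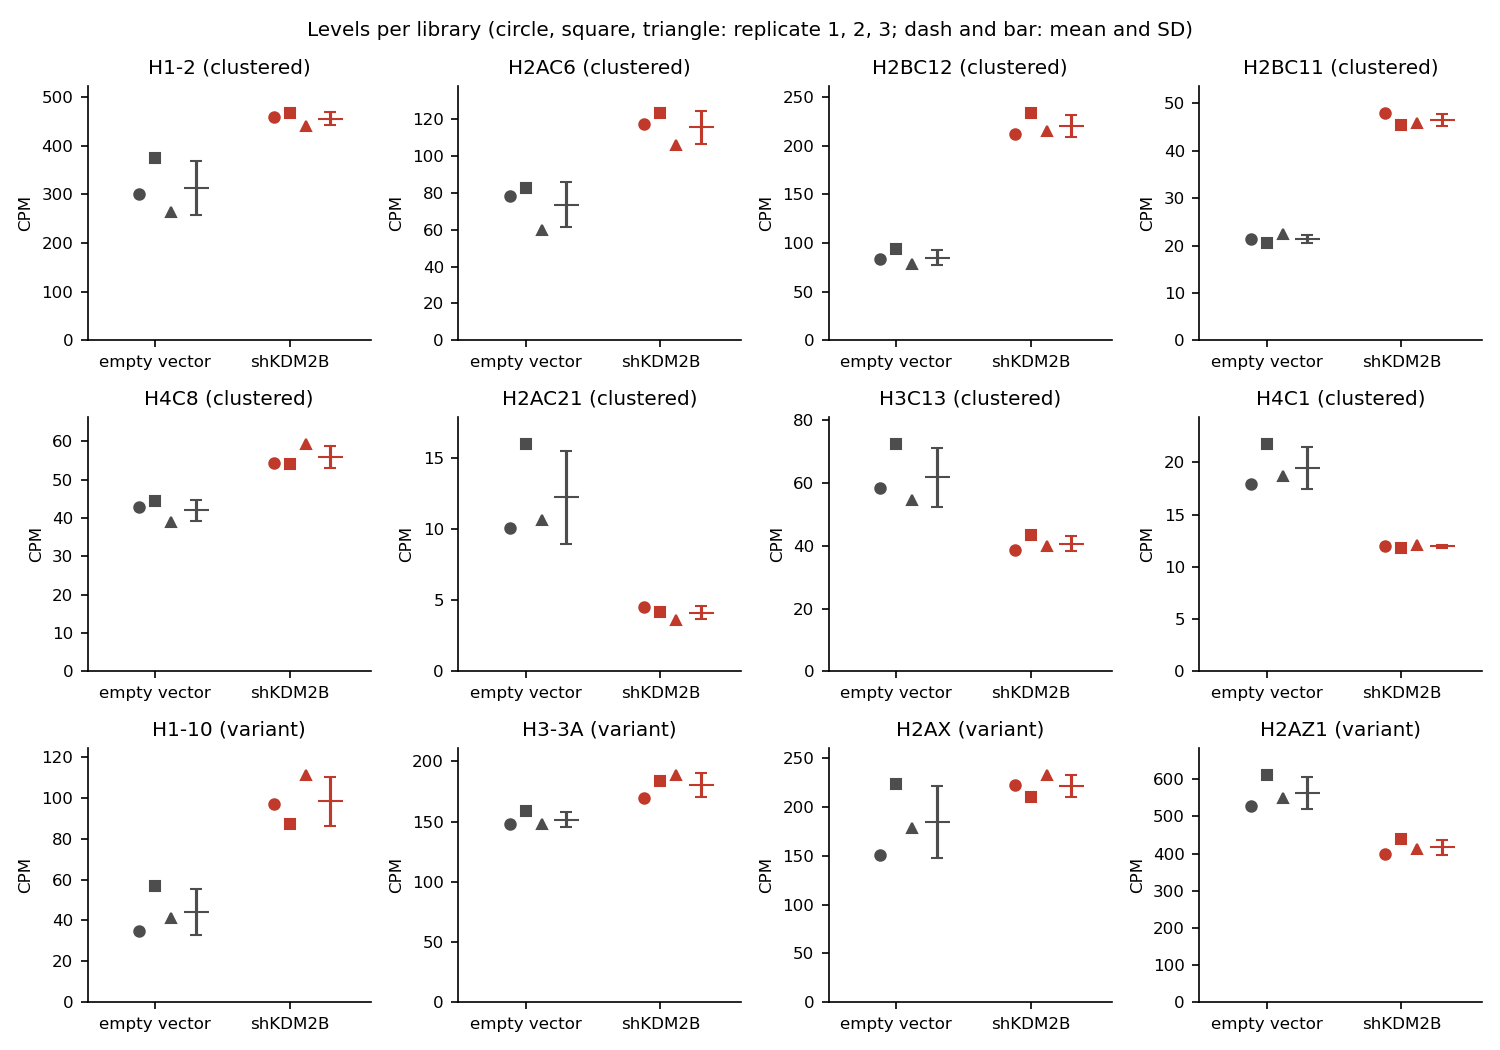
CPM of 12 members in each library, with a panel for each gene and its own axis from 0; grey is empty vector, red shKDM2B, and the dash and bar give the mean and SD. The libraries stand apart in all panels except H2AX, where empty vector replicate 2, at 223 CPM, lies among the shKDM2B libraries.

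The H2A variants fell or were not called. H2AZ1, which encodes H2A.Z placed at promoters and enhancers, had 529, 611 and 551 CPM in empty vector and 399, 440 and 411 CPM in shKDM2B libraries. The groups stood apart, and H2AZ1 fell by 0.44 on the log2 scale (SE 0.06, adjusted p 1.28e-05). The annotated span of H2AZ1-DT overlaps H2AZ1, so part of the reads of H2AZ1 may belong to that gene. H2AZ2, the paralog of H2AZ1, fell from 331 ± 10.3 to 289 ± 7.02 CPM (-0.19, adjusted p 0.00242). H2AJ went from 7.46 ± 2.01 to 5.17 ± 0.387 CPM (-0.52, adjusted p 0.0289), a call lost without empty vector replicate 2 (-0.30), shKDM2B replicate 1 or shKDM2B replicate 3.

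H2AX, which is phosphorylated at DNA breaks, had 151, 223 and 178 CPM in empty vector and 222, 210 and 232 CPM in shKDM2B libraries. The groups overlapped through empty vector replicate 2, and the log2 fold change of 0.27 was not called (adjusted p 0.108). Without that library it was 0.42 and called (adjusted p 0.000672), and it was also called with no filter beyond 1 read (0.24). The macroH2A genes, whose products carry a large macro domain and are known from silent chromatin, were not called. MACROH2A1 was at 274 ± 3.54 and 283 ± 7.12 CPM (0.05, adjusted p 0.387) and MACROH2A2 at 1.35 ± 0.106 and 1.53 ± 0.0645 CPM (0.18, adjusted p 0.597).

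Both H3.3 genes, which encode the same replication-independent H3, were higher. H3-3A had 148, 159 and 148 CPM in empty vector and 170, 184 and 189 CPM in shKDM2B libraries, groups apart, and rose by 0.25 (SE 0.06, adjusted p 0.00123). H3-3B rose by less, from 493 ± 29.4 to 544 ± 6.13 CPM (0.14, adjusted p 0.0174). Its call was lost without empty vector replicate 1 or 3 or shKDM2B replicate 1 or 3, and with no filter beyond 1 read (adjusted p 0.141). The annotated spans of H3-3A and H3-3B overlap other annotated genes, among them H3-3A-DT and UNK, so part of their reads may belong to those genes. The replication-dependent H3 sum and the H3.3 sum thus moved in opposite directions in these libraries. Only H3C2 and H3C13 of the 8 tested clustered H3 genes were called lower, and the H3 sum was not taken without them.

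Many H2A and H2B genes start head to head, sharing the stretch between them. Of 12 divergent pairs with annotated starts within 1000 bases, 6 were H2A with H2B and had both genes tested. In 3 of these the H2B to H2A ratio did not overlap between groups. Single genes did not overlap in 65.5% of all genes tested, and no such share was computed for ratios. The count of 3 is thus no result about divergent pairs as a kind. H2BC15 and H2AC15 were not counted as a pair, since the annotated span of H2BC15 covers H2AC15, though their RefSeq promoters overlap on opposite strands. For H2BC12 over H2AC12 the ratio was 2.72, 2.74 and 2.36 in empty vector and 6.66, 6.04 and 7.63 in shKDM2B libraries. The ratio was higher in every shKDM2B library, and H2AC12 itself had a log2 fold change of 0.0018 (SE 0.10, adjusted p 0.989) against 1.37 for H2BC12. For H2BC11 over H2AC11 it was 0.430 ± 0.0407 and 0.936 ± 0.286, with H2AC11 at 0.09 (SE 0.26, adjusted p 0.796). For H2BC21 over H2AC20 it fell from 0.687 ± 0.0457 to 0.518 ± 0.0440. These ratios are descriptions, with no test.

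**Figure D4:**
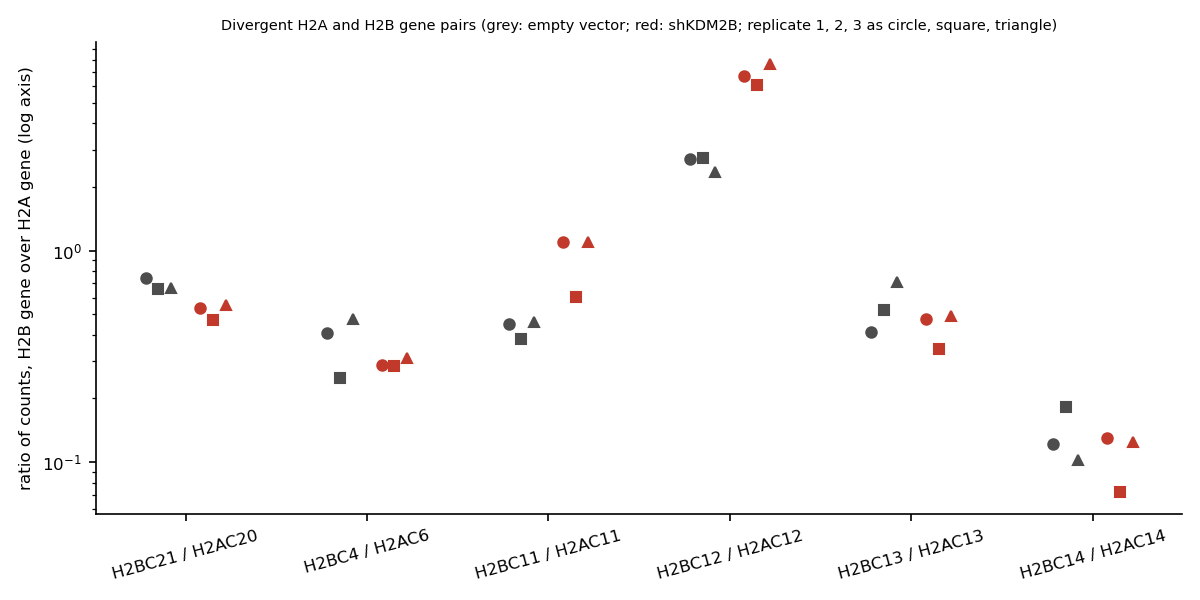
Ratio of the H2B gene to the H2A gene in each library for the 6 divergent pairs with both genes tested, on a log axis, grey for empty vector and red for shKDM2B. The H2BC12 to H2AC12 ratio is at most 2.74 in empty vector and at least 6.04 in shKDM2B libraries, and the 3 pairs H2BC4, H2BC13 and H2BC14 overlap.

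Much of the clustered set was not detected. Of the 82 members, 26 had at most 3 counts in every library, 24 of them clustered, and 18 were at 0 in all. Of these 26 genes, 24 lay in runs of neighbouring members. On chromosome 6, from 26188765 to 26273356 (84.6 kb), 15 consecutive members from H4C4 to H2BC10 had 3 counts together in all 6 libraries, and the 21 gene rows of that stretch, these 15 included, held no further counts. The genes on either side were expressed in both groups: H2BC6 had 23 to 65 counts and H4C8 440 to 909 counts per library. A second stretch of 4 members, H2AC16, H1-5, H3C11 and H4C13, had 3 counts in all. At the start of the cluster, H2AC1, H2BC1 and H1-1 had 7 counts together, but the 16 gene rows of their stretch held 2841. The chromosome 1 pair H2AC25 and H2BC26 had 0. The low counts were shared by empty vector and shKDM2B libraries. Among the 15 members from H4C4 to H2BC10, H3C4 shared 100% and H2AC7 97.8% of their windows with another gene, which makes their counts uncertain. The rest of the 15 shared 0%. Why the genes of these stretches had so few counts was not tested. The variants below the filter were H1-7, at 0 in every library, and H1-8, an oocyte linker histone, at 1 count or 0. Among clustered genes below the filter, H4C9 had 1, 3 and 1 counts in empty vector and 6, 7 and 12 in shKDM2B libraries, and was not tested.

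**Figure D5:**
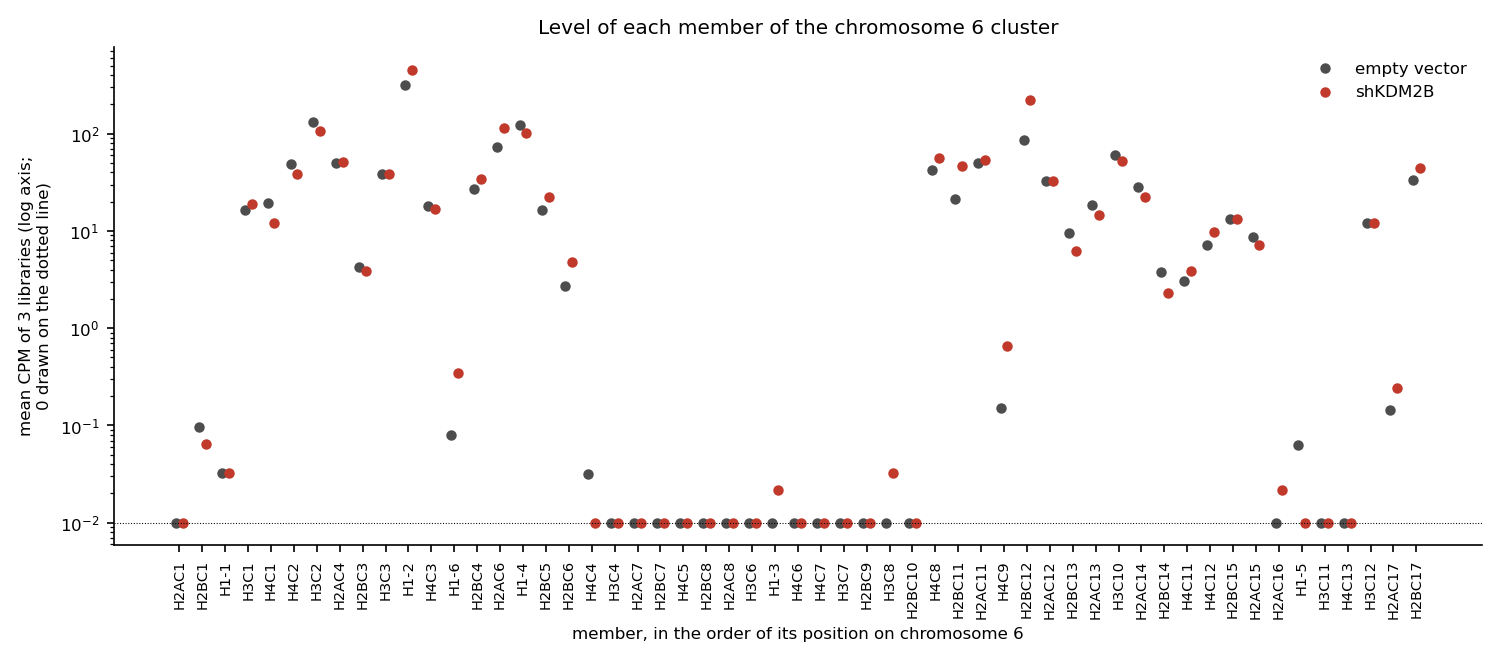
Mean CPM of the 55 members of the chromosome 6 cluster in the order of their position, on a log axis, with grey for empty vector and red for shKDM2B and 0 drawn on the dotted line. The 15 members from H4C4 to H2BC10 lie at or near 0 in both groups, between H2BC6 and H4C8.

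Of 42 tested clustered genes, 28 (66.7%) had their highest shKDM2B level in replicate 2, against 3 of 10 variants and 31.2% of all genes tested. In empty vector, 24 clustered genes (57.1%), 8 of 10 variants and 39.6% of all genes were highest in replicate 2. For H2AC11 the shKDM2B values were 43.6, 75.1 and 41.7 CPM, and for H2BC17 they were 37.1, 58.5 and 36.0 CPM. Without shKDM2B replicate 2, 10 clustered genes were called higher and 12 lower, and the median log2 fold change was -0.09. H1-4, H2AC11, H2AC14, H2AC15, H3C10 and H4C2 were then called lower, and H2BC14 no longer was. H2BC4 and H4C12 were no longer called higher, and H2AC19 was. Without shKDM2B replicate 1 the clustered counts were 10 higher and 5 lower.

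By transcript end, 16 of the 38 tested clustered genes with a GENCODE 29 transcript held a poly(A) signal (AATAAA or ATTAAA) in the last 60 bases of a coding transcript, and 6 of these were called higher and 1 lower (43.8% called). Of the 22 without one, 4 were called higher and 5 lower (40.9% called), so both shares lay below the 60.9% of all genes. The medians were 0.30 and -0.20 on the log2 scale. This grouping was made after the values were seen. Of the 22 genes, 18 held neither a poly(A) signal nor the stem-loop letters, with 4 called higher and 4 lower. H2BC12 is among these 18, with a model that ends with the coding sequence. Such a model can hold neither signal, so the medians do not separate kinds of message end.

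Most factors that make histone messages were not called. Of 13 tested, 1 was higher and 4 lower, or 38.5% called against 60.9% of all genes, with a median of -0.12. NPAT, the coactivator of clustered histone transcription, rose from 84.5 ± 9.90 to 114 ± 7.84 CPM (0.44, adjusted p 0.000297). Parts of the U7 snRNP that cuts histone messages fell: LSM11 by 0.70 (adjusted p 7.03e-06) and LSM10 by 0.56 (adjusted p 2.12e-05). ERI1, which trims the histone message end, fell by 0.51 (adjusted p 2.64e-06) and the endonuclease CPSF3 by 0.17 (adjusted p 0.0112), which was lost without shKDM2B replicate 1 (adjusted p 0.0510). SLBP (-0.06, adjusted p 0.466) and POU2F1 (0.02, adjusted p 0.763), named here for the loop and the octamer after their values were seen, were not called.

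Of 26 histone chaperones and remodellers, 25 were tested, and 7 were called higher and 12 lower, or 76.0%, against 60.9% of all genes; their median was -0.14. CHAF1B, a subunit of the CAF-1 complex that deposits H3 and H4 behind replication forks, fell from 43.0 ± 3.91 to 17.9 ± 1.78 CPM (-1.27, adjusted p 5.12e-08), and NASP, a soluble H3 and H4 chaperone, from 107 ± 10.0 to 51.5 ± 5.50 CPM (-1.05, adjusted p 8.78e-08). Partners of the H3.3 chaperone HIRA went both ways: UBN2 rose from 25.4 ± 1.67 to 62.7 ± 0.884 CPM (1.31, adjusted p 1.49e-09) and CABIN1 fell by 1.10 (adjusted p 1.09e-08). SPTY2D1, an H3 and H4 chaperone, rose by 0.59 (adjusted p 3.61e-07). Of the H3 and H4 chaperones that pass histones to CAF-1, named after their values were seen, ASF1B rose by 0.42 (adjusted p 1.04e-05) and ASF1A was not called (0.10, adjusted p 0.202).

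Genes linked to S phase, the phase in which DNA is replicated and clustered histones are made, were mostly lower. Of 23 S phase genes, 17 were called lower and 2 higher (82.6% called, against 60.9% of all genes, 30.4% lower and 30.5% higher), their median was -0.22, and the largest falls were in GINS2 (-0.998, adjusted p 9.99e-08), CDT1 (-0.82, adjusted p 1.65e-07) and CDC45 (-0.74, adjusted p 1.29e-06). The 2 called higher were CCNA2 (0.24, adjusted p 0.000234) and CDC6 (0.18, adjusted p 0.00486). SLBP is in this list and in that of the factors that make histone messages. In bulk RNA, fewer cells in S phase and less RNA per cell cannot be told apart. The part of this shift in the histone values was not tested.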

How the data were processed

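Gene expression was measured in 3 empty vector and 3 shKDM2B libraries, made with a KAPA HyperPrep kit after ribosomal RNA depletion, per the labels' protocols. The authors deposited raw read counts per gene with versioned Ensembl identifiers. Tools named in the submitters' processing notes are limma, edgeR, DESeq2, featureCounts, STAR and Trim Galore, with build GRCh38 (hg38). Strand setting, annotation release and the handling of multi-mapping reads: not given in the sources used here. Knockdown columns are named by sh, a code the labels do not explain and a number; they were assigned to shKDM2B, the series' single hairpin group. Reads of near-identical or overlapping genes may have been split or lost, and 17 of the 52 tested members overlap another annotated gene.

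Of 61533 rows, 61415 identifiers had a symbol and 58356 were in GENCODE 29; 100 names matched the pattern and 18 were dropped as not protein coding. Coordinates are GENCODE 29 on GRCh38, and RefSeq GRCh38.p14 for 4 members. Genes were filtered with filterByExpr (minimum count 10, total 15), scaled by TMM and tested in edgeR 4.0.16 (R 4.3.3) by quasi-likelihood, robust and two-sided, with Benjamini-Hochberg adjustment over all 14071 genes tested. Calls are at an adjusted p under 0.05. CPM values are TMM-scaled. Promoter pairs were aligned globally (match 1, mismatch -1, gap opening -3, extension -0.5). Scripts (Python 3.11.15) were tested on simulated data. Alternatives were other scalings, filters, DESeq2 1.42.0, limma-voom (limma 3.58.1), a replicate block and each library left out. Pairs of libraries within a group all differed by more than sampling noise (chi-square over its degrees of freedom 2.00 or more). The labels call the replicates biological without naming separate cultures, so p-values measure only the spread among the 6 libraries, possibly technical.

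The members and lists were chosen with earlier results of these data known. Genes named are the tested variants except 1, which is not reported here, all called clustered genes, the clustered gene with the highest mean CPM in each class, up to 5 called genes in each of the expression and chaperone lists and 3 in the S phase list; any other is given to explain a count or a pair and was chosen after its values were seen.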

Additional observations from a re-analysis of the deposited data

Results flagged for a closer look

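H2B pseudogenes lie outside the protein-coding rule and had reads above the control level in shKDM2B libraries, which flagged them. H2BC20P had 53, 34 and 56 counts in empty vector and 135, 123 and 195 in shKDM2B libraries, or 4.15 ± 0.961 and 12.2 ± 1.25 CPM (SD, n = 3 each), a log2 fold change of 1.56 (edgeR adjusted p 1.31e-06). H2BC19P had 20, 9 and 17 counts against 32, 29 and 44, or 1.34 ± 0.553 and 2.839 ± 0.287 CPM (1.08, adjusted p 0.00360). In both genes all shKDM2B libraries lay above all empty vector libraries, and the groups did not overlap in 65.5% of all genes tested. Both were flagged because they were called higher, so this is no separate support. Of the 18 names dropped as not protein coding, 3 were tested, and the third, H1-10-AS1, was not called. Whether reads of other H2B genes were counted here was not tested.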

How the results depend on the processing

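The count of clustered genes called lower was 7 and moved to 11 with no filter beyond 1 read. Leaving out each library gave 5 to 12 clustered genes lower, 9 to 11 higher, 2 to 5 variants higher and 2 to 3 lower, and 7566 to 9128 genes called of all. For the lists it gave 13 to 17 S phase genes lower and 2 higher, 6 to 7 chaperones higher and 10 to 15 lower, and 1 expression factor higher and 4 to 5 lower. The ratio of summed clustered CPM ran from 1.14 to 1.23, and was 1.03 without H1-2 and H2BC12. S phase genes called higher were 2, and 1 with no filter beyond 1 read. The causes of these moves were not tested. Over all alternatives run, 7 counts or sums moved by more than 1.5 times (1 SD for the sum) and 161 moved by less or not at all; of 42 named genes with a test, 10 changed call under some alternative and 0 changed direction. Replicate numbers did not pair the libraries (same-number correlations 0.118, -0.0258 and 0.0751), and with a replicate block 8479 genes were called, with 12 clustered genes higher and 10 lower. Genes near the floor of 3 counts could not be tested for a change at this depth.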
